A study of Mus musculus with 3 samples.

Results

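Receptors of natural killer (NK) cells were examined in Mef2c-deficient and control mouse bone marrow progenitors through 10 genes: Klra1, Klra3, Klra4, Klra7 and Klra8 of the Ly49 family, Klrd1, Klrc1, Klrk1, Klrb1c and Ncr1. The genes were picked by name with earlier results of the same arrays known, so their signals are described here and none of them is tested. The array held 12 probes named for 8 of these genes, of 41174 probes that were not controls. Klra1 and Klra4 had no probe under their own names and were represented only by probes of near-identical relatives that list their RefSeq accessions.

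Each of 3 arrays with 2 colours carried 1 mutant library in Cy3 and 1 control library in Cy5. Mutant mice were Mx1-Cre Mef2c fl/fl and control mice were Mef2c fl/fl without Cre, so an effect of Cre itself cannot be told apart from the loss of Mef2c. Mice of both genotypes were injected with 250 µg of poly(I:C) a day, 4 times. This analog of RNA sets off interferon and through it the Mx1 promoter of the Cre transgene. That promoter answers to interferon in many cell types besides blood progenitors. For each library 15000 multipotent progenitors were sorted from marrow 2 days after the last injection, by c-kit and Sca-1 staining and the absence of lineage staining. The antibodies used to gate out mature cells were against CD3, B220, Mac-1, Gr-1 and Ter119. Mac-1 is carried by mature mouse NK cells too, which such a gate would remove, and no antibody specific to NK cells is named. Age, strain and the number of animals behind a library are not given in the sources used here, so the spread between the 3 arrays may be technical in part.

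Mef2c is a transcription factor of the MADS-box family with roles in muscle, nerve and blood cells. NK cells weigh signals from inhibitory receptors, which recruit the phosphatase Ptpn6 (SHP-1), against signals from activating receptors, which work through adaptors such as Tyrobp (DAP12) and Hcst (DAP10). In mice the Ly49 receptors bind class I MHC or related molecules. CD94, the product of Klrd1, pairs with NKG2 proteins such as NKG2A, the product of Klrc1, and reads the peptide-binding molecule Qa-1. The genes of these lectin-like receptors lie together in the NK gene complex. On chromosome 6 of GRCm38.p6 the members follow each other in the order Klrb1c, Klrd1, Klrk1, Klrc1, Klra4, Klra8, Klra7, Klra3 and Klra1. Ncr1, whose product NKp46 is an immunoglobulin-like receptor and a common marker of NK cells, lies on chromosome 7.

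The direction of every ratio rests on the dye labels. Control was in Cy5 and mutant in Cy3 on all 3 arrays, all on 1 slide, so dye and genotype cannot be told apart. The authors' deposited ratio column of array 2 ran opposite to the scanner's ratio in comparison with the other arrays, as its correlation with the scanner's Cy5 over Cy3 ratio was 0.935, against -0.947 and -0.939 on arrays 1 and 3. Whether array 2 was a dye swap is not known, and values with its sign turned are given for the members and in part for other genes. Ratios over all tested probes correlated at 0.286 between arrays 1 and 2, at 0.0977 between arrays 1 and 3 and at -0.0126 between arrays 2 and 3. The gate's markers Kit, Ly6a, Flt3, Cd34 and Slamf1 were well above background in all 6 libraries. For the Mef2c probe the 3 arrays gave log2 ratios of 0.08, 0.10 and -0.96, and whether it lies in the deleted part of the gene is not given, so it does not check the genotype.

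As labelled, the member probes were detected less often in mutant than in control libraries, and most of that gap depends on the direction of array 2. A probe counts as detected in a library when the scanner software marked it well above background in that dye. The median net signal was 353, 350 and 363 in mutant libraries (Cy3), against 752, 796 and 838 in control libraries (Cy5). Dye and genotype coincide as labelled, and the part of this brightness difference in the detection counts was not tested. Of the 12 member probes, 7, 8 and 9 were detected in mutant libraries 1, 2 and 3, against 11, 12 and 11 in the control libraries of the same arrays. That makes 24 of 36 probe and library pairs (66.7%) in mutants, against 34 of 36 (94.4%) in controls. With array 2 exchanged between the groups it was 28 of 36 (77.8%) in mutants, against 30 of 36 (83.3%) in controls. Over all 41174 probes the share detected was 73.4% to 78.6% in mutant libraries, against 76.3% to 80.4% in control libraries. With the scanner's less strict flag, for signals that were positive and significant, the member counts were 32 of 36 in mutants and 36 of 36 in controls. Only 5 of the 12 member probes were detected in all 6 libraries, while 69.3% of all probes were. Klra3 probe A_51_P468308 and Klra7 probe A_52_P248513 were detected in no mutant library and in 2 control libraries each, a pattern of 1.53% of all probes, and the reverse pattern held for 0.245%. With array 2 exchanged, each of these probes was detected in 1 mutant and 1 control library. No member spot was saturated.

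**Figure D1:**
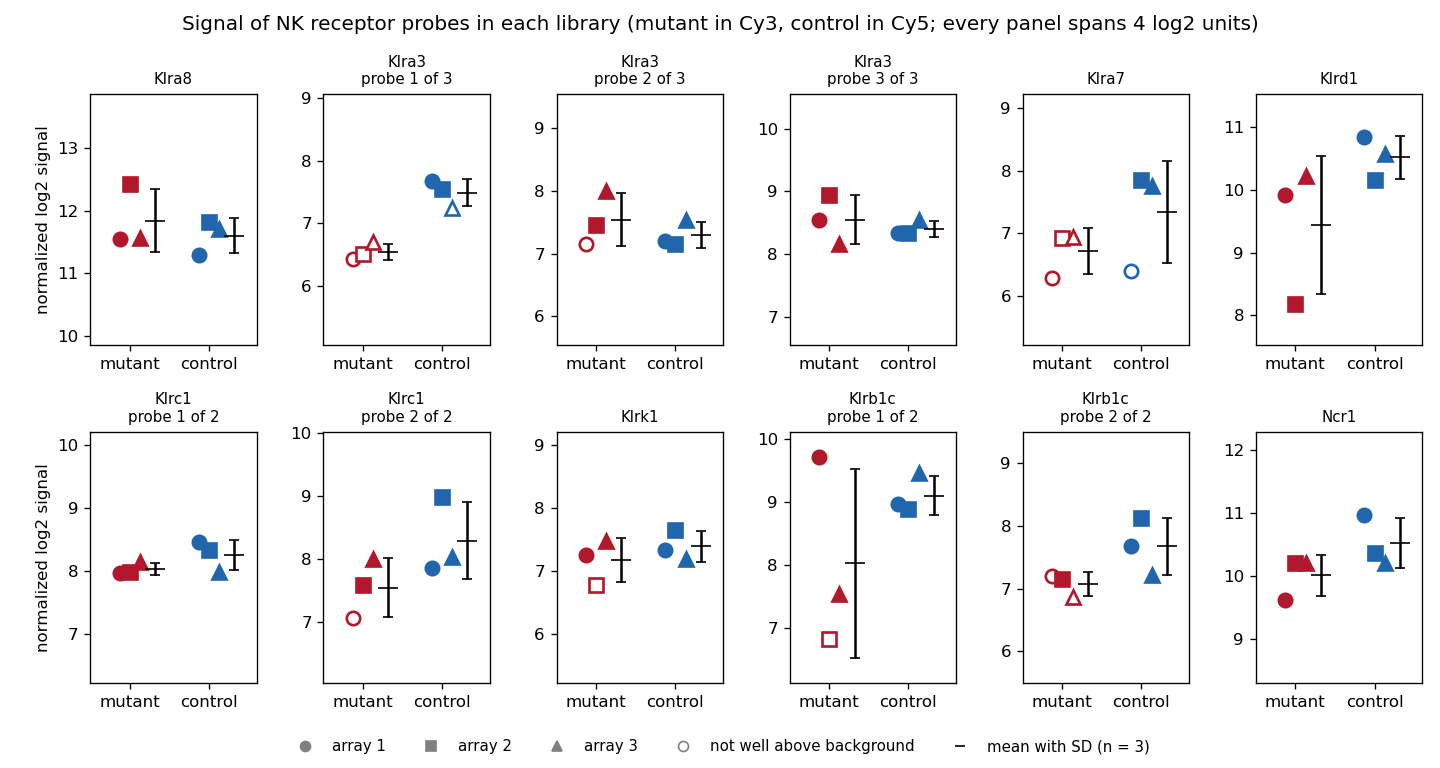
Normalized log2 signal (vertical axis) of each of the 12 member probes in the 3 mutant and 3 control libraries, with a panel per probe, open symbols for libraries in which the probe was not well above background, and bars for the mean with SD (n = 3). The mutant symbols lie below every control symbol in 3 panels, Klra3 probe 1 of 3, Klrb1c probe 2 of 2 and Ncr1, and overlap with the controls in the other 9; with array 2 exchanged between the groups they overlap in all 12.

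All 12 member probes passed the filter on dim probes, which asked for detection in the same dye on at least 2 arrays. In 3 of the 12, all mutant libraries lay below all control libraries, and in 0 of the 12 they lay above. Over the 32869 tested probes measured in every library, 9.92% lay below and 7.51% above. With array 2 exchanged, 0 of the 12 lay below and 0 above, against 4.32% and 4.09% of those tested probes. The mean log2 ratio of mutant over control was below 0 for 9 of 12 member probes, against 51.1% of tested probes. Ratios were below 0 on all 3 arrays for 6 of 12 (18% of tested probes) and above 0 on all 3 for 0 of 12 (16% of tested probes). The members' median ratio was -0.55, with medians of -0.30, -0.90 and -0.24 on arrays 1, 2 and 3, and the median over all tested probes was -0.01. No probe among 32911 passed an adjusted p of 0.05 in limma (0% called). At an unadjusted p under 0.05 limma counted 1384 probes lower (4.21%) and 1622 higher (4.93%) in mutants. Because the members were chosen from this contrast, their counts carry no weight of their own.

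The Ly49 genes come first. Their identity needs care because the family arose by repeated duplication and probes can match several copies. The promoters of the Ly49 genes give an example. Among the bases before the start of Klra8, the stretch of 52 that best matches Klra3, Klra4 and Klra7 was picked. In RefSeq's annotation of GRCm38.p6, this stretch near the start of Klra3, Klra4, Klra7 and Klra8 carried the same letter in all of these genes at 43 positions. Those positions are written in capitals. For Klra3 only the 25 bases before its annotated start are shown.
Klra3, chr6:130337627-130337651, minus strand: AAGCAaTTTCCTCTTTTtGcTTTGg
Klra4, chr6:130067305-130067356, minus strand: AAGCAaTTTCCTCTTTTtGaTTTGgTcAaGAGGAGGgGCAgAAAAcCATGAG
Klra7, chr6:130233366-130233417, minus strand: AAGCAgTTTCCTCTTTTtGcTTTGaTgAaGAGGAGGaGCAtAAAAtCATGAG
Klra8, chr6:130129933-130129984, minus strand: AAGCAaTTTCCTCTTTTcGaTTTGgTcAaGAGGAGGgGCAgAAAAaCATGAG
Compared with Klra8, the stretch matched at 50 of 52 positions in Klra4, at 47 in Klra3 and at 44 in Klra7. A match at 44 or more positions was found near the start of 8 of 27025 genes (0.0296%), and 7 of them were Klra genes: Klra3, Klra4, Klra5, Klra6, Klra7, Klra8 and Klra9. The limit of 44 was the lowest match among the genes used to pick the stretch. Klra3, Klra4, Klra7 and Klra8 were therefore bound to be counted, while Klra5, Klra6 and Klra9 were not used in the choice. The best match in the window of Klra1 was 22 of 52, no better than the 22 to 24 found for Klrk1, Klrb1c, Klrc1 and Ncr1.

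Klra8 encodes Ly49H, an activating receptor that recognises the m157 protein of mouse cytomegalovirus. Its probe, A_52_P98698, crosses an exon junction, since its 60 bases span 2932 bases of genome. The normalized log2 signal was 11.55, 12.42 and 11.56 in mutant libraries 1, 2 and 3, against 11.29, 11.82 and 11.70 in the control libraries. Mutant library 2 was highest and the groups overlapped. The log2 ratio was 0.24 ± 0.37 (SD, n = 3), with 0.26, 0.60 and -0.14 on the 3 arrays, and the spread exceeds the mean. The Klra8 probe was thus detected in every library with no shift larger than the spread between arrays, and with array 2 turned its ratio was -0.16. It lists a second RefSeq transcript, and as probe sequences were not used, whether it reports Klra8 RNA alone cannot be settled here.

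Klra3 encodes Ly49C, an inhibitory receptor, and its 3 probes disagreed. Probe A_51_P468308, the only one of the 3 that lists Klra3 alone and does not cross a junction, read 6.44, 6.51 and 6.70 in mutant libraries, against 7.67, 7.55 and 7.25 in control libraries. All mutant values were lower than all control values, and the ratio was -0.94 ± 0.34 (SD, n = 3). Before normalization its mean signals were 41.9, 48.8 and 59.5 in mutants over a local background of 32 to 34, against 252, 232 and 188 in controls over 50.5 to 57. Median signals before normalization were also higher in the control dye on every array, as given above. Since no mutant library was well above background, only an approximate bound can be given: signal at this probe was 1.47-fold lower in mutants as labelled. Control library 3 was not well above background either and is part of the control mean, so the true difference may be smaller. With array 2 turned its ratio was -0.25, and with detection in 1 mutant and 1 control library the bound no longer applies. Bounds of this kind set the control mean against the higher of the mutant signal and the dimmest detected signal of the same library, averaged over arrays on the log2 scale.

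The other Klra3 probes did not share that pattern. Probe A_51_P468313, which also lists the accessions of Klra10, Klra9 and Klra6, read 7.16, 7.46 and 7.99 in mutant libraries, against 7.20, 7.16 and 7.53 in control libraries. Its ratio was 0.24 ± 0.26 (SD, n = 3), and it was detected in 2 mutant and all 3 control libraries. Probe A_52_P34058, whose bases span 921 bases of genome and so cross a junction, read 8.54, 8.94 and 8.16 in mutants, against 8.33, 8.33 and 8.55 in controls, and its ratio was 0.14 ± 0.50, or -0.08 with median centring in place of loess. For these probes the groups overlapped. Which of the 3 reports Klra3 RNA alone cannot be settled here, as probe sequences were not used.

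Klra7 encodes Ly49G, another inhibitory receptor. Its probe A_52_P248513, which spans 154 bases of genome, read 6.29, 6.93 and 6.95 in mutant libraries, against 6.41, 7.85 and 7.76 in control libraries. The pair on array 1 was close together, with control library 1 itself not well above background, and the gap came from arrays 2 and 3. The ratio was -0.62 ± 0.44 (SD, n = 3), and an approximate bound put the signal 1.25-fold lower in mutants. The undetected control library 1 is part of the control mean behind that bound, so the true difference may be smaller. Turning array 2 brought its mean to 0.00, and with detection in 1 mutant and 1 control library the bound no longer applies.

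Probes under other names bear on the members that lack a clean probe. Of 6 such probes that list a member's RefSeq accession, 5 passed the filter and were tested. Of the 6, 4 had all mutant libraries below all control libraries, against 9.92% of tested probes, and 0 had them above, against 7.51%. With array 2 exchanged none of those 4 kept that order, and of the 6 only the Klra18 probe had it, against 4.32% of tested probes. The probe named Klra23, A_51_P426904, also lists Klra7. It read 6.92, 7.06 and 6.41 in mutants, against 8.82, 8.63 and 7.77 in controls, was detected in 0 mutant and 3 control libraries, and had a ratio of -1.61 ± 0.27 (SD, n = 3). An approximate bound put the signal 2.55-fold lower in mutants, and the adjusted p in limma was 0.543. Its ratio was -0.57 with array 2 turned, and detection in 1 mutant and 2 control libraries leaves no bound.

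Klra4, which encodes the activating receptor Ly49D, was listed by probes named Klra22, Klra12 and Klra18. The Klra22 probe A_51_P132079 read 6.81, 6.90 and 6.41 in mutants, against 7.99, 7.55 and 7.29 in controls, with a ratio of -0.90 ± 0.26 (SD, n = 3). It was detected in 0 mutant and 3 control libraries, and its approximate bound was 1.52-fold lower in mutants. The Klra12 probe A_52_P288892 read 7.52, 7.43 and 6.92 in mutants, against 8.80, 8.34 and 8.11 in controls, with a ratio of -1.13 ± 0.20. It was detected in 2 mutant and 3 control libraries. Both the Klra22 and the Klra12 probe had lower signal in every mutant library as labelled. The Klra18 probe A_51_P306387 did not share the gap, with a ratio of -0.10 ± 0.17, detection in 0 mutant and 2 control libraries, and a sign that turned to 0.07 with median centring. The Klra22 and Klra12 ratios were -0.47 and -0.52 with array 2 turned, and the bound for Klra22 no longer applies. The array thus gives no single value for Klra4.

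Klra1, which encodes the inhibitory receptor Ly49A, was listed by a single probe, A_51_P434836, named Klra16. That probe was not well above background in any library and was not tested. By the less strict flag, for positive and significant signals, it was detected in 2 mutant and 3 control libraries. Its ratio was -0.07 ± 0.19 (SD, n = 3), and as it lists Klra16 too, the array gives no separate value for Klra1. Over the whole family the array had 24 probes under 19 Klra names, and 3 of these probes list more than 1 current gene. That count leaves out names without a match in the current RefSeq annotation, such as Klra12, Klra18, Klra22 and Klra23. Their probes list a member as well, so more probes are shared than the count shows. As labelled, the 24 probes were detected in 32 of 72 probe and library pairs in mutants, against 49 of 72 in controls. Over all probes the share was 73.4% to 78.6% in mutant libraries, against 76.3% to 80.4% in control libraries. Of the 18 Klra probes that passed the filter, 14 had a mean ratio below 0, against 51.1% of tested probes. These family counts include member probes, rest on the dye labels of array 2 and were not recounted with that array exchanged.

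Klrd1 and Klrc1 encode the partners of the CD94 and NKG2A receptor. Klrd1 probe A_51_P280947 was detected in all 6 libraries and read 9.91, 8.19 and 10.22 in mutants, against 10.84, 10.16 and 10.57 in controls. Mutant library 2 lay far below the rest, while mutant library 3 was above control library 2, so the groups overlapped. The log2 ratio was -0.93, -1.97 and -0.35 on the 3 arrays, with a mean of -1.09 ± 0.82 (SD, n = 3), the lowest mean among the member probes and 0.471-fold of control. Without array 2 the mean was -0.64, and with array 2 turned it was 0.23.

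Both Klrc1 probes overlapped between the groups. Probe A_52_P390127 read 7.06, 7.58 and 7.99 in mutants, against 7.85, 8.98 and 8.03 in controls, with a ratio of -0.75 ± 0.68 (SD, n = 3). It was detected in 2 mutant and 3 control libraries. Probe A_52_P149637, whose bases span 1806 bases of genome, read 7.97, 7.98 and 8.15 in mutants, against 8.46, 8.33 and 7.99 in controls, with a ratio of -0.23 ± 0.34. The probe named Klrc3, A_52_P74290, lists Klrc1 and Klrc2 as well. It read 6.99, 7.39 and 7.10 in mutants, against 7.40, 7.68 and 7.73 in controls, with all mutants lower by a narrow margin and a ratio of -0.45 ± 0.17. Its detection was in 1 mutant and 3 control libraries. The ratios of these probes were 0.19, 0.01 and -0.25, in the order given, with array 2 turned.

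Klrk1 encodes NKG2D, an activating receptor for stress-induced ligands. Its probe A_52_P272778 read 7.25, 6.78 and 7.48 in mutant libraries, against 7.34, 7.65 and 7.19 in control libraries. The ratio had both signs, with -0.09, -0.87 and 0.29 on the 3 arrays and a mean of -0.23 ± 0.59 (SD, n = 3). Without array 2 the mean changed sign, and the probe was detected in 2 mutant and 3 control libraries.

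Klrb1c encodes the antigen known as NK1.1 in some mouse strains, and its 2 probes spread widely. Probe A_51_P476687 read 9.72, 6.81 and 7.53 in mutants, against 8.97, 8.88 and 9.46 in controls. Mutant library 1 was above its control while the others were far below theirs, giving ratios of 0.75, -2.07 and -1.93 and a mean of -1.08 ± 1.59 (SD, n = 3). Mutant library 2 was not well above background, so the ratio of array 2 is not exact. The mean was -2 without array 1, -0.59 without array 2, -0.66 without array 3 and 0.30 with array 2 turned. Probe A_52_P599514 read 7.20, 7.16 and 6.86 in mutants, against 7.67, 8.13 and 7.21 in controls. Here every mutant value lay below every control value, the closest pair being 7.20 and 7.21, and the ratio was -0.59 ± 0.33. It was detected in 1 mutant and 3 control libraries, and with array 2 turned its mean was 0.05.

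Ncr1 probe A_51_P500882 was detected in all 6 libraries. It read 9.62, 10.20 and 10.20 in mutants, against 10.97, 10.36 and 10.21 in controls. Mutant values were all lower, but on arrays 2 and 3 by little, as the ratios were -1.35, -0.16 and -0.01. The mean of -0.51 ± 0.73 (SD, n = 3) rests mostly on array 1, without which it was -0.09. With array 2 turned it was -0.40.

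**Figure D2:**
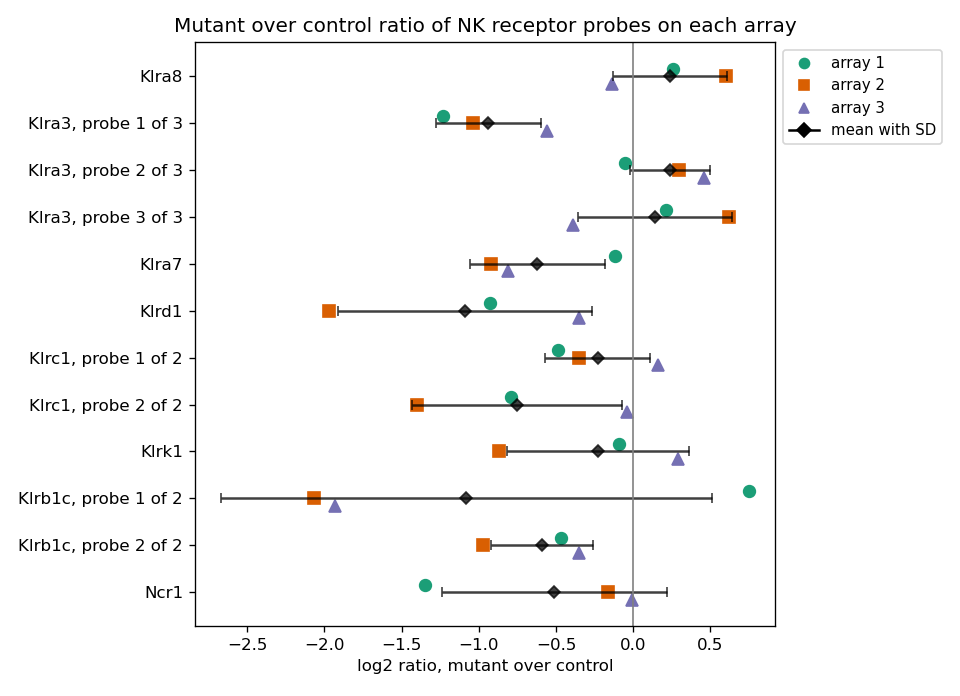
Log2 ratio of mutant over control (horizontal axis) of the 12 member probes on each of the 3 arrays, with black diamonds and bars for the mean with SD. Klrd1 and Klrb1c probe 1 of 2 have the lowest means as labelled, -1.09 and -1.08 (0.23 and 0.30 with array 2 turned), and Klra8 and the other Klra3 probes, 2 and 3 of 3, are the ones with means above 0, although with array 2 turned Klra8 is at -0.16 and Klra3 probe 3 of 3 at -0.27, and with median centring the last is at -0.08.

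As labelled, the lowest mean ratio was that of Klrd1 at -1.09, followed by Klrb1c A_51_P476687 at -1.08, Klra3 A_51_P468308 at -0.94, Klrc1 A_52_P390127 at -0.75 and Klra7 at -0.62, and the highest were Klra8 and Klra3 A_51_P468313, both at 0.24. Neighbours in the order of means differed by less than the larger of their SDs. The order does not hold with array 2 turned, where Ncr1 was lowest at -0.40 and Klrk1 highest at 0.35. Fewer cells of a type and less RNA per cell cannot be told apart in sorted bulk libraries.

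The promoters of the members were also searched for short motifs of lymphoid factors, chosen after the windows were read. RefSeq's table for GRCm38.p6 held a window from 250 bases before to 50 after the start for 9 of the 10 members, and none for Klrd1. TGTGGT, the core bound by RUNX factors, occurred on either strand in 5 of the 9 windows, those of Klra1, Klrk1, Klrb1c, Klrc1 and Ncr1, and in 16.8% of all 32851 windows. The following 60 bases hold it for Klrk1, Klrb1c and Ncr1, with the match in capitals. In the Ncr1 stretch nearer its start the capitals are the motif on the other strand.
Klrk1, chr6:129623961-129624020, minus strand: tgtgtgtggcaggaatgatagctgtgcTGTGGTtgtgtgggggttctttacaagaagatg
Klrb1c, chr6:128788698-128788757, minus strand: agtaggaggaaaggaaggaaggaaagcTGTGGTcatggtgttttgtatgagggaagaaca
Ncr1, chr7:4337512-4337571, plus strand: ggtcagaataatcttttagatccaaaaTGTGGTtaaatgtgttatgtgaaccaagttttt
Ncr1, chr7:4337647-4337706, plus strand: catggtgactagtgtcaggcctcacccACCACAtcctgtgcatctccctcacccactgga
The pattern of TCF factors, taken as CTTTGAA with its variants CTTTGAT and then CTTTGTT as well as CTTTGTA on either strand, occurred in the windows of Klra7 and Klrc1, 2 of 9, and in 16.9% of all windows. A match in Klra7, CTTTGAT, lies inside the stretch printed above. The MEF2 consensus occurred in 1 of 9, that of Klrc1, and in 3.19% of all windows. These matches describe letters only and say nothing of binding in these cells, and windows without a match say nothing of a factor either.

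Other genes of NK cells gave a wider frame. Of 85 genes listed for their roles in NK cells and not among the members, 74 had a probe and 66 were tested, each by its brightest probe that passed. For Klra22, Klra23 and Klrc3 that was the shared probe described above. None was called (0% of all probes), and at an unadjusted p under 0.05 limma counted 11 lower and 2 higher, against 4.21% and 4.93% of all probes. The mean ratio was below 0 in 50 and above 0 in 16, with a median of -0.27, against -0.01 over all probes. With array 2 turned, the median was -0.17 and the unadjusted counts were 1 lower and 0 higher. The role groups and single genes below are given as labelled and were not recounted with that array turned. Array 2 held the ratio furthest from 0 for Il18r1 (-1.40), Sh2d1b1 (1.41), Tyrobp (0.80), Fcgr3 (2.04), Cd96 (-2.21) and H2-T23 (-0.95). For Ets1, Ccl3, Ccl4 and Clec2d another array did.

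The transcription factors and cytokine receptors of the NK lineage had 10 of 12 tested genes below 0, with a median of -0.29. Ets1, a factor needed for NK development, had ratios of -1.16, -0.75 and -1.58 on the 3 arrays (limma, adjusted p = 0.543). Il18r1, a chain of the interleukin 18 receptor, averaged -1.12 ± 0.41 (SD, n = 3; limma, adjusted p = 0.543). The adaptors and kinases through which the receptors signal did not lean either way, with 5 of 10 below 0 and a median of -0.02. Sh2d1b1, an adaptor of SLAM family receptors, averaged 0.50 ± 0.80 (limma, adjusted p = 0.640). Tyrobp, the adaptor of the activating Ly49 receptors and also of many myeloid receptors, averaged 0.40 ± 0.34 (limma, adjusted p = 0.609). Its ratios as labelled were 0.19, 0.80 and 0.21, and the sign of the largest rests on the direction of array 2.

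Among killing and secreted effectors 10 of 12 tested genes were below 0, with a median of -0.36. The chemokines Ccl3 and Ccl4 had the lowest means and a wide spread. Ccl3 had ratios of -4.30, -1.85 and -0.11 (limma, adjusted p = 0.543), and Ccl4 had -4.12, -2.55 and 0.63 (limma, adjusted p = 0.551). Of the other receptors, 20 of 23 were below 0, with a median of -0.27. Fcgr3, a receptor for IgG that NK and myeloid cells share, averaged 1.03 ± 1.04 (limma, adjusted p = 0.547), and Cd96, a receptor for nectin-like ligands, averaged -0.82 ± 1.92 (limma, adjusted p = 0.694).

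Genes listed as ligands of the member receptors or of their relatives were below 0 in 5 of 9 tested and above 0 in 4, with a median of -0.44. The ligands of NKG2D were among those above 0, with Raet1a at 0.64 ± 0.77, Raet1e at 0.72 ± 0.42 and Ulbp1 at 0.15 ± 0.12 (SD, n = 3 each). Array 2 gave the highest ratio for Raet1a (1.47) and Raet1e (1.11). Clec2i was at 0.23 ± 0.67. H2-T23, which encodes Qa-1, the ligand of CD94 with NKG2A, had ratios of -0.88, -0.95 and -0.77 (mean -0.87 ± 0.09, SD, n = 3), and did not pass (limma, adjusted p = 0.543). Clec2d, a ligand of a Klrb1 family receptor, averaged -0.79 ± 0.58 (limma, adjusted p = 0.543).

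**Figure D3:**
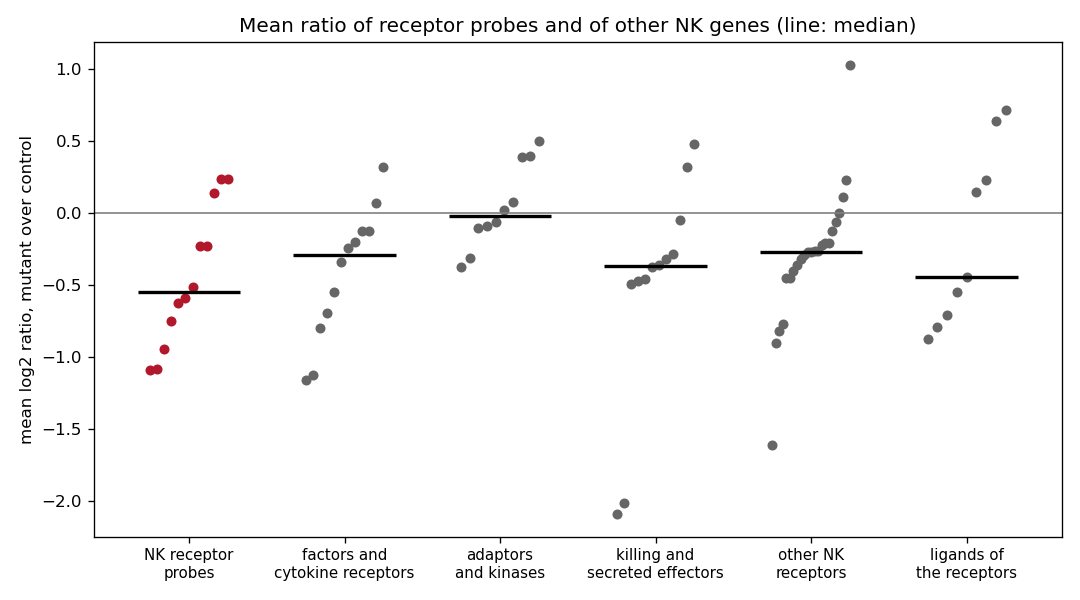
Mean log2 ratio of mutant over control (vertical axis) of the 12 member probes, in red, and of the tested genes of 5 role groups of NK cells, in grey, with a line at each median. As labelled, the members' median is -0.55 and the group medians run from -0.44 for ligands to -0.02 for adaptors and kinases. With array 2 turned the members' median is 0.03 and that of all listed genes is -0.17.

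Signals of cell type markers also differed in level between the groups as labelled, none of them past the test (0% called). Their part in the receptor signals was not tested. The summed signal of 10 genes of mature NK cells, scaled so that the net signal of each library summed to 1000000, was 299 to 364 in mutants, against 229 to 290 in controls. Nkg7, a granule protein gene with a ratio of 0.48 ± 0.55 (SD, n = 3), made up 222 to 295 of that in mutants, against 145 to 212 in controls. The other 9 genes summed to 55.9 to 77.2 in mutants, against 77.9 to 88.5 in controls. Among those genes Gzma and Gzmb were well above background in 1 mutant and 1 control library each and Klrg1 in 0 mutant and 2 control libraries, while Il2rb, Eomes, Tbx21, Prf1, Nkg7, Ccl5 and Cd160 were detected in all 6. Of the 8 NK markers tested, 7 had a ratio below 0, with a median of -0.19, against 51.1% and -0.01 over all tested probes. The sum of 8 T cell genes was 46.4 to 62.6 in mutants, against 64.2 to 78 in controls. For 5 macrophage and monocyte genes it was 317 to 395 in mutants, against 164 to 192 in controls. Ly6c1, at a ratio of 1.67 ± 0.14, had the highest normalized signal of these 5 genes in every library. The ratio was 0.41 ± 0.08 for Csf1r, 0.22 ± 0.5 for Cd68 and -1.05 ± 0.23 for Itgam (SD, n = 3 each). Adgre1 had ratios of 0.94, 1.23 and 0.84 on the 3 arrays. The sum without Ly6c1 was not computed, so the gap may rest mostly on that gene. Neutrophil genes summed to 40.1 to 101 in mutants, against 70 to 716 in controls, where control library 1 held the 716. Erythroid genes summed to 34.4 to 89.5 in mutants, against 95.5 to 303 in controls. The 6 B cell genes summed to 80.4 to 146 in mutants, against 79.4 to 91.8 in controls, and the 5 gate markers to 362 to 528 in mutants, against 355 to 389 in controls. With array 2 exchanged, the T cell range was 46.4 to 78 in mutants, against 62.6 to 73 in controls. The macrophage and monocyte range was 164 to 395, against 184 to 351, and the erythroid range 68.5 to 111, against 34.4 to 303. That of the 10 NK genes was 229 to 312, against 270 to 364. All these overlapped, while the neutrophil, B cell and gate ranges no longer did. The NK sums of Nkg7 alone and without it were not recounted.

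Klra8 was the member probe with the highest mean log2 intensity among those detected in every library, and its pattern over the 6 libraries was set beside that of 28505 other probes detected in all of them. The most alike were Oxsr1 (Pearson r = 0.996), the transcript listed as BB533394 (0.990), Slc31a2 (0.987), Atf2 (0.979) and Ube2g1 (0.979). These values describe 6 libraries that share arrays and dyes, and no other NK gene was among the 5.

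**Figure D4:**
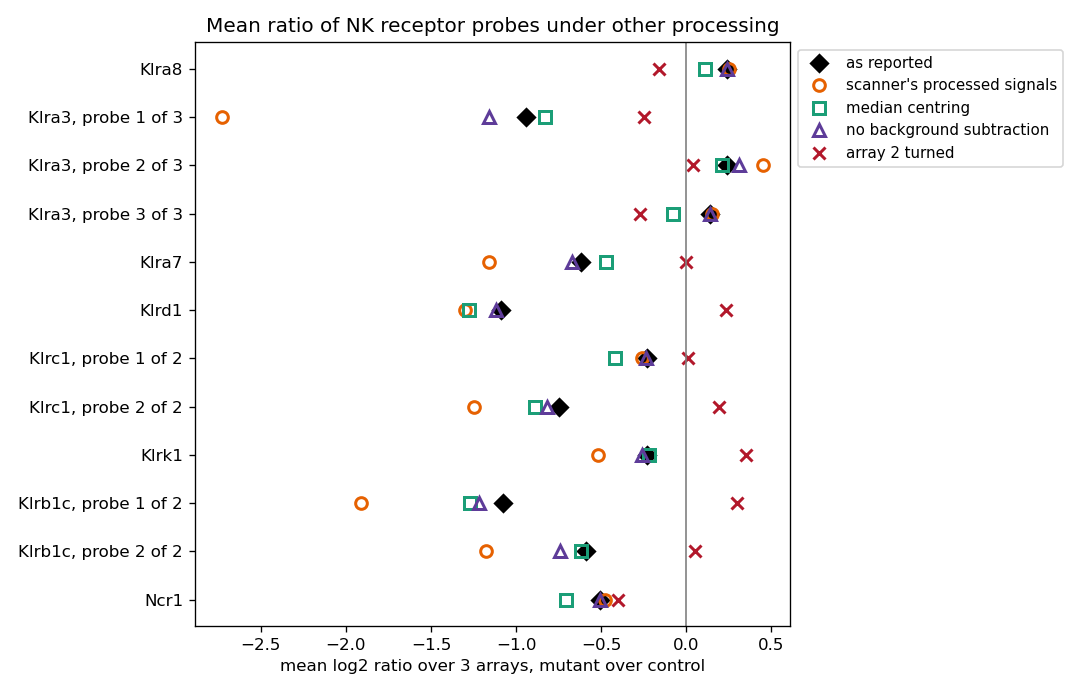
Mean log2 ratio over the 3 arrays (horizontal axis) of the 12 member probes as reported and under 4 other settings. With the scanner's processed signals Klra3 probe 1 of 3 moves to -2.73 and Klrb1c probe 1 of 2 to -1.91, and with array 2 turned only 4 of the 12 means are below 0.

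The size of the ratios depended on how background was treated, most of all for dim probes. With the scanner's processed signals, which subtract background, the members' median was -0.84 and Klra3 probe A_51_P468308 was at -2.73, while Klra8 at 0.25 and Ncr1 at -0.48 stayed close to the values above. The number of members below 0 was 9 with the processed signals and without background subtraction. It was also 9 with the ratios of the authors' deposited table once its array 2 column had been turned to match the dye labels, and 10 with median centring, which moved the median of all probes to -0.15. With array 2 turned it was 4 of 12, the members' median was 0.03, and 8 means changed sign.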

How the data were processed

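The scanner files deposited by the authors hold a linear intensity for each spot and for the background around it, written by Agilent Feature Extraction 9.5.1.1. The same deposited files give processed intensities, in which background was subtracted and the dyes were normalized per the file headers, and the log10 of the Cy5 to Cy3 ratio. Spot by spot log2 ratios are in a deposited table. The submitters' processing notes list limma as the tool, without a version. The table's ratios lay within 0.05 of loess ratios without background subtraction for 100% of tested probes, once array 2 was turned, and each column had 201 empty rows. Per the labels' protocols, cDNA was amplified by SuperAmp, a global PCR method, and 250 ng went into each labelling.

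Here background was corrected by limma 3.58.1 in R 4.3.3 (normexp, offset 50). Loess was then fitted within arrays, where control spots had weight 0. Outlier spots were left out, 300, 331 and 252 per array. Levels of single libraries were also normalized by Aquantile. Probes well above background in the same dye on at least 2 arrays were tested against a ratio of 0 (lmFit, eBayes, Benjamini-Hochberg at 0.05). The number of arrays limits the precision. Symbols were updated by RefSeq accession for 22951 probes. Members, lists and tests were chosen with earlier results of these data known. Named genes were all members, in each role group the 2 largest ratios among genes detected in all 6 libraries, since fewer than 2 passed, and the 5 probes most alike to a member. Klra and Klrc3 probes of other names were added because they list a member's accession, and Nkg7, the ligands above 0 and genes at the centre of the marker lists after their values were seen. The fit was also run on simulated ratios, whose outcome is not reported here.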

Additional observations from a re-analysis of the deposited data

How the results depend on the processing

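The count of probes called was 0 under every setting run: processed signals, median centring, no background subtraction, array 2 turned, the deposited ratios turned to match the dye labels, no filter, a strict filter, 1 probe per gene, and each array left out. The pathway list was likewise at 0 called throughout. At an unadjusted p under 0.05, limma counted 2745 lower and 801 higher with median centring, which put 63.7% of tested probes below 0 against 51.1%, and 637 lower and 470 higher with array 2 turned. Leaving out array 1 gave 762 lower and 851 higher, and leaving out array 3 gave 1556 lower and 2256 higher. The members' median was -0.48, -0.42 and -0.59 without arrays 1, 2 and 3. Without array 2 the means of Klrk1 and Klra3 probe A_52_P34058 changed sign, and median centring put that Klra3 probe at -0.08. With array 2 turned Klrd1 was at 0.23, Klrb1c at 0.30 and 0.05, Klrc1 at 0.01 and 0.19, Klrk1 at 0.35, Klra3 probe A_52_P34058 at -0.27 and Klra8 at -0.16, and these 8 had the opposite sign. The share of member flags without 1 array ran between 62.5% and 70.8% in mutants and between 91.7% and 95.8% in controls, and with array 2 turned it was 77.8% and 83.3%. These settings, and the NK marker sum without Nkg7, were added after the data were seen. The tested ratios already pair the mutant and control library of each array, so no further replicate block was fitted. A block for slide could not be fitted, as there was 1 slide. Spots close to background limit what can be said of Klra1, Klra3, Klra4, Klra7, Klrb1c, Klrc1 and Klrk1.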
